A study of Mus musculus with 2 samples.

Results

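The cells described here are natural killer (NK) cells from mouse hearts after ischaemia and reperfusion, found in single-cell RNA libraries of cardiac CD45+ leukocytes. A cell was taken as an NK cell when the receptor genes Ncr1, Klrb1c, Klre1 and Klra8 summed to at least 3 unique molecular identifiers (UMIs, which tag single captured RNA molecules) and the T-cell genes Cd3d, Cd3e and Trac summed to at most 2. It also had to hold at least 200 genes, at most 20% mitochondrial UMIs, and less than 0.3% of its UMIs in 6 neutrophil genes (G0s2, Il1r2, Hdc, Mmp9, Csf3r and Cxcr2). This gave 96 NK cells among 11145 cells that passed the limits on genes and mitochondrial UMIs, out of 11297 barcodes in all. Of these, 29 NK cells came from the splenectomy library, against 67 from the sham library.

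Both groups were male wild-type C57BL/6J mice aged 8 weeks. The splenectomy group had the spleen removed and the sham group had a sham operation. Both had the left anterior descending coronary artery tied for 60 min and the heart reperfused for 24 h before CD45+ cells were pulled out with magnetic beads. The library whose title carries no splenectomy mark was taken as sham. Each group is 1 library of 10x 3′ version 3 chemistry, and the sources used here do not give the number of mice in it. No difference between the groups therefore has a replicate check, no test was made, and every interval below is an exact 95% interval that covers counting error only. Whether splenectomy or another difference between the 2 libraries goes with a value cannot be told apart.

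NK cells are innate lymphocytes that kill stressed or infected cells without prior priming. They weigh signals from activating receptors against signals from inhibitory receptors that read MHC class I on other cells. They kill by releasing perforin and granzymes from granules, and they secrete interferon-gamma and chemokines such as Ccl3, Ccl4, Ccl5 and Xcl1, which draw in other leukocytes. In mice the Ly49 receptors, encoded by the Klra genes, do the work that killer-cell immunoglobulin-like receptors do in humans.

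The splenectomy library held 48024013 UMIs over 5087 barcodes, and the sham library held 53512625 UMIs over 6210 barcodes. NK cells had a median of 5239 UMIs and 1728 genes after splenectomy, against 6025 UMIs and 1881 genes after sham surgery. The NK cells summed to 162058 UMIs in the splenectomy library and 519981 UMIs in the sham library. 9 barcodes occurred in both libraries, and 0 of them belonged to an NK cell.

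Before the results, 5 of the 67 sham NK cells stand apart because they also held RNA of another cell type. 4 of them held 53, 154, 419 and 591 UMIs of 5 myeloid genes (C1qa, C1qb, C1qc, Csf1r and Lyz2) and were deep, with 15356 to 33369 UMIs each. The fifth held 10 UMIs of B-cell genes. Among all other NK cells the highest myeloid sum was 7 UMIs in the splenectomy library and 4 UMIs in the sham library. All 5 cells also held Gzma, at 11 to 91 UMIs. The 14 monocyte and macrophage markers summed to 839 CPM (the gene's UMIs scaled to 1000000 UMIs of the NK cells of the library) in splenectomy NK cells, with Cd68 and Adgre1 among those at 0, against 4227 CPM in sham NK cells. Without the 5 cells the sham sum was 718 CPM. The 5 platelet markers summed to 80.2 CPM after splenectomy and 662 CPM after sham surgery, and to 24.4 CPM in the sham library without the 5 cells. Because 4 of the 5 cells were deep, the level ratios and list counts between the libraries are given with all cells and again without these 5, while counts of cells holding a gene are over all NK cells. The part of other cells' RNA in any single gene's difference was not tested.

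The NK share of kept cells was lower in the splenectomy library. It was 0.579% (0.388% to 0.831%, 29 of 5005 cells) after splenectomy, against 1.09% (0.847% to 1.38%, 67 of 6140 cells) after sham surgery. The ratio of the shares was 0.531 (0.331 to 0.832), and without the 5 cells it was 0.574. The neutrophil limit was met by 3362 of the 5005 splenectomy cells and 3734 of the 6140 sham cells, and among these the NK shares were 0.863% after splenectomy and 1.79% after sham surgery. T cells, defined by the Cd3 genes under the same limits, numbered 69 in the splenectomy library and 59 in the sham library. B cells, defined by Cd79a, Cd79b and Ms4a1, numbered 122 in the splenectomy library and 117 in the sham library. A share of captured cells does not give the number of NK cells in a heart, and 1 library per group gives no spread between animals.

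**Figure D1:**
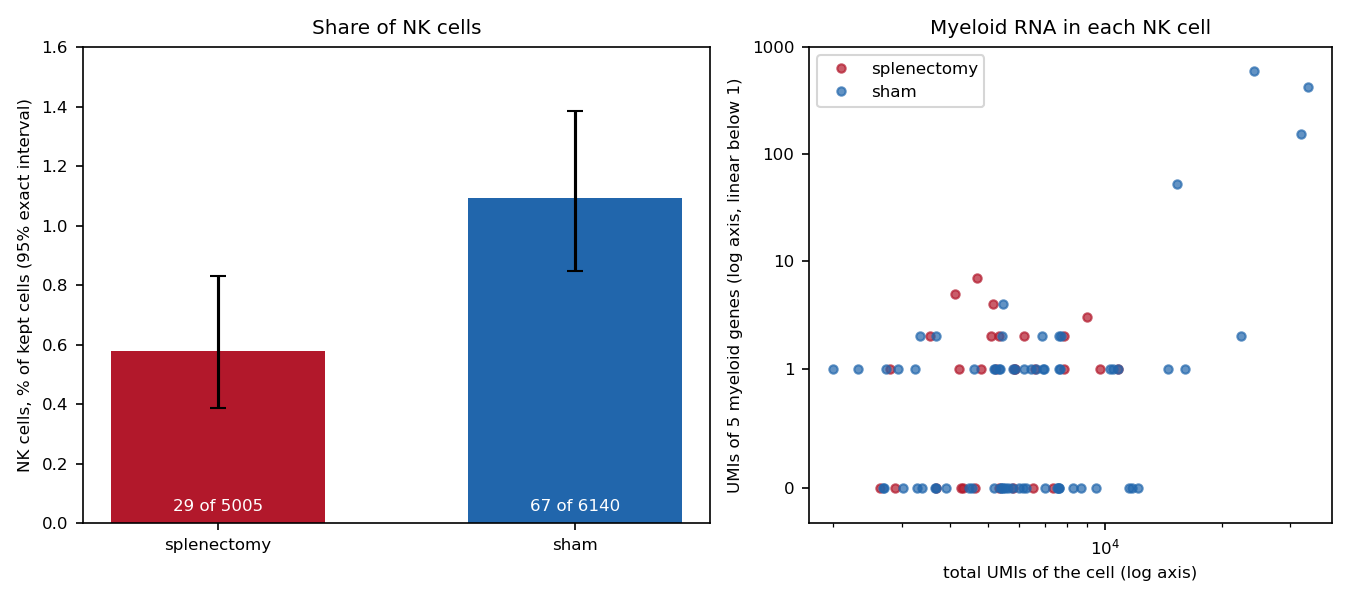
Left, NK cells as a percentage of kept cells in each library, with exact 95% binomial intervals. Right, UMIs of 5 myeloid genes against total UMIs for each NK cell, on log axes, where the 4 sham cells with 53 to 591 myeloid UMIs stand apart from all other cells, which hold at most 7.

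The label was checked against NK markers, of which Ncr1, Klrb1c and Klre1 served in the rule and Gzma and Prf1 did not. Gzma, which encodes granzyme A, was found in 25 of 29 splenectomy NK cells and 64 of 67 sham NK cells. After each cell was thinned to 2000 UMIs, these shares were 86.2% (68.3% to 96.1%) after splenectomy and 93.9% (85.2% to 98.3%) after sham surgery, with 1 shallower sham cell left out. In B cells, whose median depth was 3831.5 UMIs after splenectomy and 3660 UMIs after sham surgery, the thinned Gzma share was 0% in both libraries, with exact intervals that reach 3.16% of 115 splenectomy cells and 3.27% of 111 sham cells. Nkg7, a granule membrane protein, and Ccl5, a chemokine, were found in all 29 splenectomy and all 67 sham NK cells. Eomes, the transcription factor that marks conventional NK cells, was found in 20 of 29 splenectomy cells and 43 of 67 sham cells. Cd3e, Cd4, Cd8a and Cd8b1 were at 0 in NK cells of both libraries. Of 12 T-cell markers, 7 were detected in splenectomy NK cells and 8 in sham NK cells. Trbc1 and Trbc2, the constant genes of the T-cell receptor beta chain, were among them. Trbc1 had 54 UMIs in the splenectomy library and 169 UMIs in the sham library. Cd28 had 28 UMIs in 16 of 29 splenectomy cells and 40 UMIs in 24 of 67 sham cells. Cd3g had 20 UMIs after splenectomy, 13 of them in 1 cell, and 8 UMIs after sham surgery. The 12 T-cell markers summed to 975 CPM in splenectomy NK cells and 638 CPM in sham NK cells, against 4118 CPM in splenectomy T cells and 3707 CPM in sham T cells.

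Cells near the limits of the rule were few. At exactly 3 UMIs of the 4 receptor genes there were 2 splenectomy and 3 sham cells, and Nkg7 was found in all of them. At 2 UMIs, just outside, there were 6 splenectomy and 11 sham cells with medians of 15985.5 UMIs after splenectomy and 15249 UMIs after sham surgery, and Nkg7 was found in 0 of the splenectomy and 2 of the sham cells. The median sum of the 4 genes was 9 UMIs per NK cell after splenectomy and 10 UMIs after sham surgery.

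Set against all other kept cells under the neutrophil limit, the genes with the highest ratios in NK cells were receptors and killing genes. The 25 leading genes, named by the size of the ratio with both libraries weighted equally, included Klra8, Klra7, Klra9, Klra4, Klra3, Klrb1a, Klrb1c, Klrc1, Klrc2, Klre1 and Ncr1 among receptors. They also included Gzma, Prf1, Fasl, Nkg7 and Serpinb9b among genes of the killing machinery and its inhibitors, Xcl1 and Ccl5 among chemokines, and Eomes. Itga2 encodes the integrin subunit known as CD49b or DX5, a classical marker of mouse NK cells. Samd3, Khdc1a, Styk1, Adamts14 and Qrfp completed the list. These are descriptions, since the rule chose the cells by 4 of the genes.

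T cells were the lymphocytes set against NK cells, and Xcl1 had the highest ratio. Xcl1, the chemokine ligand of Xcr1 on cross-presenting dendritic cells, had 237 UMIs in splenectomy NK cells and 490 UMIs in sham NK cells, against 2 UMIs in splenectomy T cells and 0 UMIs in sham T cells. Gzma was 140-fold higher in NK cells than in T cells of the splenectomy library and 86.0-fold higher in the sham library. Irf8, a transcription factor better known from dendritic cells and monocytes, was at 1203 CPM in splenectomy NK cells and 1033 CPM in sham NK cells and averaged 72.1-fold above T cells. Spry2, an inhibitor of receptor tyrosine kinase signalling, had 42 UMIs in splenectomy and 94 UMIs in sham NK cells, against 1 UMI in splenectomy and 2 UMIs in sham T cells. Genes on the low side, with higher levels in T cells, included Ccr7 and Il7r. Ccr7, the receptor for entry into lymph nodes, had 2 UMIs in splenectomy and 3 UMIs in sham NK cells, against 125 UMIs in splenectomy and 98 UMIs in sham T cells. Il7r, the interleukin-7 receptor, had 1 UMI in splenectomy and 14 UMIs in sham NK cells, against 234 UMIs in splenectomy and 167 UMIs in sham T cells.

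Of 5185 genes set between NK cells and T cells, 5.19% reached 2-fold on the NK side in both libraries and 3.72% reached it on the T-cell side. Of the activating receptors and their adaptors, 11 of 15 measured were higher and 1 was lower. Of inhibitory receptors, 8 of 10 were higher, and of killing genes 10 of 16. Of transcription factors, 4 of 17 were higher and 2 lower, and Tcf7, a factor of naive and memory T cells, was at 12.3 CPM in splenectomy and 26.9 CPM in sham NK cells, against 251 CPM in splenectomy and 230 CPM in sham T cells. Of the markers of type 1 innate lymphoid cells (ILC1), the tissue-resident relatives of NK cells, 7 had the 30 UMIs needed for this count. Of these 7, 0 were higher and 5 were lower than in T cells. Itga1 and Tnfsf10 had too few UMIs to be counted, at most 9 per library in NK cells. Itga1 was 4.02-fold above T cells after splenectomy and 3.99-fold after sham surgery, and Tnfsf10 was 8.04-fold and 3.55-fold above them. Because T cells held 5 of the 7 markers at higher levels, likeness to ILC1 was not tested by this count. Of interferon-stimulated genes, 0 of 40 were higher and 10 were lower. The lists hold genes of the rule itself, so these counts describe the cells and no test was made on them.

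**Figure D2:**
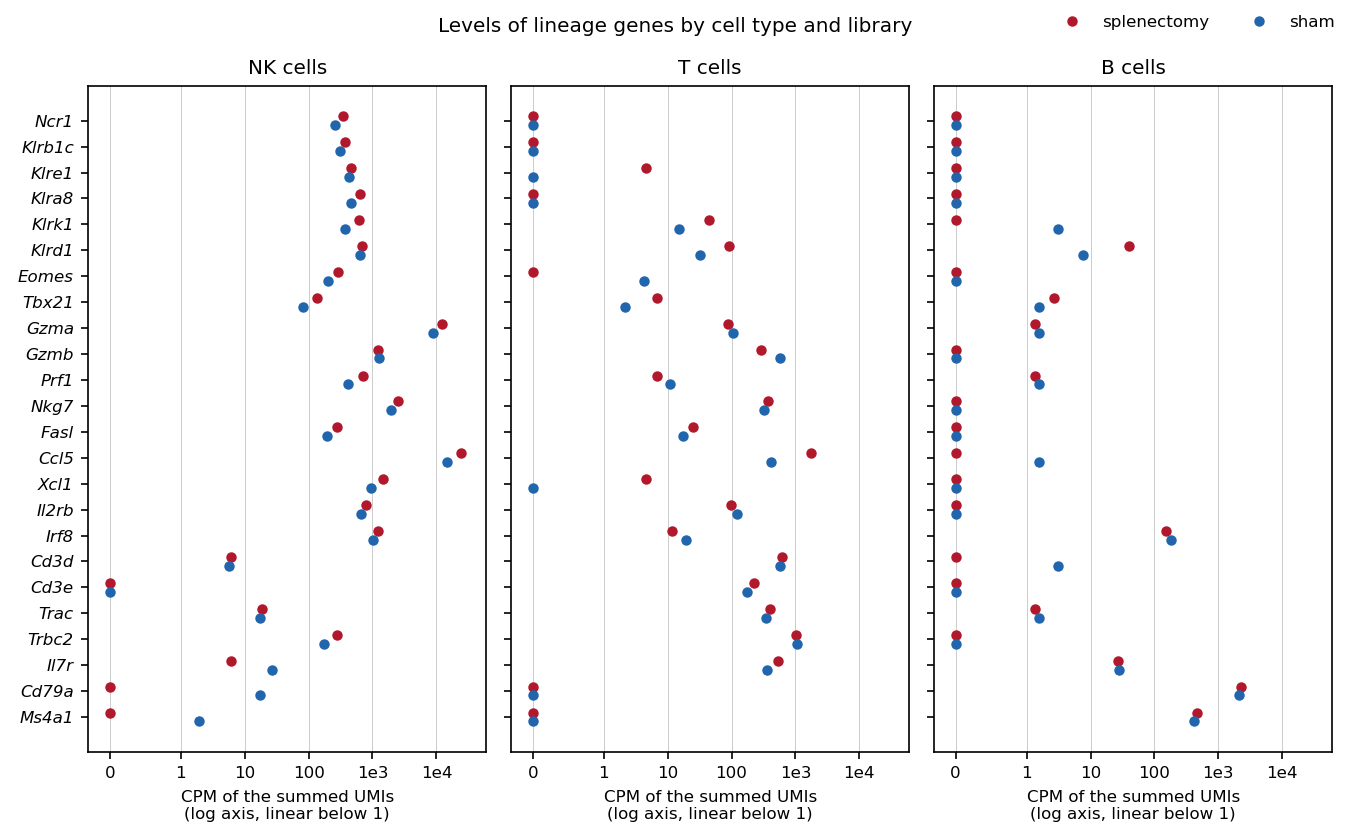
Summed level of lineage genes in CPM, on a log axis that is linear below 1, in NK cells, T cells and B cells, with 1 point for the splenectomy library and 1 for the sham library. The receptor and killing genes are high in NK cells of both libraries, Cd3e is at 0 in them, and Cd79a and Ms4a1 are at 0 in splenectomy NK cells and come from 1 cell each in the sham library, with 9 UMIs of Cd79a in the cell with 10 B-cell UMIs and 1 UMI of Ms4a1 in another cell.

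The killing genes carry the identity of these cells, and the windows of the 250 bases before the gene start are shown for Gzma, Prf1 and Ncr1 because these 3 genes are NK markers set with the label. The sequences are RefSeq windows on GRCm38.p6, written 5′ to 3′ on the strand of the gene. Capitals mark 6-base words that resemble the core sites of 3 factor families with NK roles, searched on both strands: AGGTGT (or ACACCT) for T-box factors such as Eomes, TGTGGT (or ACCACA) for RUNX factors and GGAAGT (or ACTTCC) for ETS factors. In these windows no marked word overlaps another. The words were chosen with the data known, and a match is a description of the letters only. The Gzma window is chr13:113100982-113101231 on the minus strand, with a T-box word starting 80 bases and a RUNX word starting 50 bases before the gene. The Prf1 window is chr10:61297586-61297835 on the plus strand, and the Ncr1 window is chr7:4337465-4337714 on the plus strand.
Gzma: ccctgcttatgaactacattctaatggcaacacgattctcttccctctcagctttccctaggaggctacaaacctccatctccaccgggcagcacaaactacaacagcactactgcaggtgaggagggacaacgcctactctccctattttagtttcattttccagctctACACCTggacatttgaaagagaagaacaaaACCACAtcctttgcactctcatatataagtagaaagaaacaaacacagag
Prf1: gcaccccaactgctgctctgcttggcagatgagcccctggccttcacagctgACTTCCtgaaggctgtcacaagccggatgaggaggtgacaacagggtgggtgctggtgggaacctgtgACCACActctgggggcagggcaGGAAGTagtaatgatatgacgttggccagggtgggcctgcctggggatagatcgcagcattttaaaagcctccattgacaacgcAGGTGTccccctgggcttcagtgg
Ncr1: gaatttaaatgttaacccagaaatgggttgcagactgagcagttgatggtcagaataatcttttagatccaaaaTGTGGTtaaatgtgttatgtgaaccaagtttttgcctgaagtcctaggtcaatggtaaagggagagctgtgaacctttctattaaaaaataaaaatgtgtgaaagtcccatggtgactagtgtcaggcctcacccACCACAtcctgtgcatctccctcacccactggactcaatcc
All 3 windows hold a RUNX word. Of the 25 leading NK genes, 22 had a RefSeq window, and 11 of these 22 held the RUNX word, against 15.9% of the windows of 27025 genes. The T-box word was in 4 (18.2%) of them, against 13.6% of all windows, and the ETS word was in 6 (27.3%), against 22.2%. The carriers Klrb1a, Klrb1c, Klrc1, Klrc2 and Klre1 are relatives in 1 gene cluster, so these windows share sequence history and are not independent.

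The amount of granzyme A RNA differed widely between cells. Per splenectomy NK cell, Gzma ran from 0 to 228 UMIs with a median of 64, and per sham NK cell from 0 to 261 UMIs with a median of 62. The ranges overlap almost fully. The summed level was 12230 CPM after splenectomy and 8948 CPM after sham surgery, a log2 ratio of 0.45 (0.37 to 0.53), and without the 5 cells the sham level was 10706 CPM and the log2 ratio 0.19. No Gzma UMI was found in 4 splenectomy and 3 sham NK cells.

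Prf1 encodes perforin, which opens the target membrane to granzymes. It had a median of 4 UMIs per cell and 716 CPM after splenectomy, against a median of 2 UMIs and 417 CPM after sham surgery. The log2 ratio was 0.78 (0.44 to 1.11), and 0.54 (0.20 to 0.88) without the 5 cells. Gzmb, which encodes the caspase-cleaving granzyme B, was at 1222 CPM after splenectomy and 1265 CPM after sham surgery, a log2 ratio of -0.05 (-0.29 to 0.18). Without the 5 cells the Gzmb log2 ratio was -0.38 (-0.61 to -0.14), so the summed level had the opposite direction to Prf1. The median over all NK cells did not, at 4 Gzmb UMIs per cell after splenectomy and 3 after sham surgery. 1 splenectomy cell held 25.8% of the Gzmb UMIs of its library, and 2 sham cells held 19.1% of those of theirs. Nkg7 was at 2530 CPM after splenectomy and 1927 CPM after sham surgery, a log2 ratio of 0.39, and 0.15 without the 5 cells. Gzmc, a further granzyme, had 118 UMIs in the splenectomy library and all of them lay in 1 cell, against 5 UMIs in 3 sham cells. Serpinb9, which protects the NK cell from its own granzyme B, was at 679 CPM after splenectomy and 519 CPM after sham surgery, a log2 ratio of 0.39 (0.05 to 0.71), and 0.14 (-0.20 to 0.47) without the 5 cells.

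Over both libraries, 5913 genes had at least 10 UMIs in NK cells, which is the background for the gene lists that follow. Relative to sham surgery, 16.8% of them reached 1.5-fold on the high side after splenectomy and 23.4% on the low side, and their median log2 ratio was -0.06. Without the 5 cells 17.2% of 5243 genes were on the high side and 20.3% on the low side, and the median was -0.01. Of 18 measured killing genes, 3 were past 1.5-fold on the high side (Gzmc, Prf1 and Tnfsf10) and 4 on the low side, and their median was 0.20. Those on the low side were Ctsc, Lamp1, Unc13d and Stxbp2, while Srgn did not reach 1.5-fold. Unc13d had 3 UMIs after splenectomy and 18 UMIs after sham surgery, and Stxbp2 had 4 and 21 UMIs. Srgn, the proteoglycan that packs granules, Ctsc, which activates granzymes, and Lamp1, a granule membrane protein, had log2 ratios of -0.51, -1.08 and -0.84 with all cells and -0.15, 0.14 and 0.38 without the 5 cells. Without these cells 2 killing genes lay on each side and the median was 0.14. The killing genes thus lay on both sides of the background.

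Among the activating receptors, Klrk1 and Klrc2 were higher after splenectomy in the counts. Klrk1 encodes NKG2D, the receptor for stress-induced ligands. It was found in 29 of 29 splenectomy cells and 59 of 67 sham cells, at 1 to 9 UMIs per splenectomy cell with a median of 3 and at 0 to 11 UMIs per sham cell with a median of 2. The level was 623 CPM after splenectomy and 369 CPM after sham surgery, a log2 ratio of 0.76 (0.39 to 1.11), and 0.51 (0.14 to 0.87) without the 5 cells. After thinning, the share of cells with Klrk1 was 82.8% (64.2% to 94.2%) after splenectomy and 54.5% (41.8% to 66.9%) after sham surgery, and 0% in B cells of both libraries. Klrc2, the activating NKG2C chain that pairs with Klrd1, had a log2 ratio of 0.90 (0.22 to 1.55), and 0.69 without the 5 cells. Ncr1, the natural cytotoxicity receptor NKp46, was at 346 CPM after splenectomy and 256 CPM after sham surgery, a log2 ratio of 0.43 with all cells and 0.25 without the 5 cells, given as a description because the rule used this gene. The adaptor genes Tyrobp, Fcer1g and Hcst, which carry the receptors' signals, had log2 ratios of 0.07, 0.18 and 0.36 with all cells and 0.08, 0.22 and 0.15 without the 5 cells. Of 16 measured activating receptors and adaptors, 4 were past 1.5-fold on the high side and 2 on the low side (median 0.38). The 2 low genes were Cd226 and Fcgr3. Cd226 had 4 UMIs in 4 splenectomy cells and 26 UMIs in 18 sham cells. Fcgr3 had 6 UMIs in 4 splenectomy cells and 69 UMIs in 16 sham cells, 43.5% of the sham UMIs in 1 cell. Without the 5 cells 2 genes of the list were higher and 1 lower, with a median of 0.21. These are small counts beside the 16.8% and 17.2% of all genes on the high side, and the list as a whole is not set apart by them.

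The Ly49 and NKR-P1 genes are neighbouring, near-identical copies, so reads could be split or lost between them and each value below is uncertain. Klra4, which encodes the activating receptor Ly49D, was at 716 CPM after splenectomy and 437 CPM after sham surgery, a log2 ratio of 0.71 (0.38 to 1.04), and 0.39 (0.06 to 0.72) without the 5 cells. It was found in 16 of 29 splenectomy cells and 26 of 67 sham cells, and single positive cells reached 14 UMIs after splenectomy and 23 UMIs after sham surgery. Klra7, the inhibitory receptor Ly49G, had a log2 ratio of 0.59 (0.17 to 1.01) with all cells, and of 0.32 (-0.11 to 0.74) without the 5 cells. Klra9, the inhibitory Ly49I, had log2 ratios of 0.55 (0.04 to 1.04) with all cells and 0.29 (-0.22 to 0.79) without them. Both intervals include 0 once the 5 cells are left out. Klra3, the inhibitory Ly49C, had a log2 ratio of -0.23 (-0.87 to 0.37), and -0.49 (-1.14 to 0.11) without the 5 cells. Klrd1, which encodes CD94, the partner of the NKG2 chains, was at 679 CPM after splenectomy and 640 CPM after sham surgery, a log2 ratio of 0.08 (-0.24 to 0.40), and -0.16 (-0.49 to 0.16) without the 5 cells. Of 11 measured Ly49 and NKR-P1 genes, 3 were past 1.5-fold on the high side and 1 on the low side (median 0.30), but leaving out the 5 cells put 0 on the high side and 2 on the low side (median 0.11). Of 12 measured inhibitory receptors, 3 were past 1.5-fold on the high side and 2 on the low side (median 0.14), and without the 5 cells 1 of 11 was higher and 2 were lower, with a median of 0.01.

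NK cells differ from each other in which Ly49 genes they express, and this showed in single cells. Over 9 Klra genes, a splenectomy cell held 2.55 genes on average and at most 4, against 2.37 on average and at most 5 in a sham cell. After thinning the means were 1.97 after splenectomy and 1.88 after sham surgery. The 29 splenectomy cells had 23 different combinations of these genes, and the 67 sham cells had 32. Klra8, the receptor Ly49H and a gene of the rule, and Klra4 were found together in 11 of the 29 splenectomy cells and 19 of the 67 sham cells. Cells with no Klra UMI numbered 3 after splenectomy and 7 after sham surgery, and every one of them held Klrc1, which encodes the inhibitory receptor chain NKG2A. Among cells with a Klra UMI, Klrc1 was found in 9 of 26 after splenectomy and 31 of 60 after sham surgery. The Klra8 gene served in the rule, which bears on which cells without Klra UMIs could enter.

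**Figure D3:**
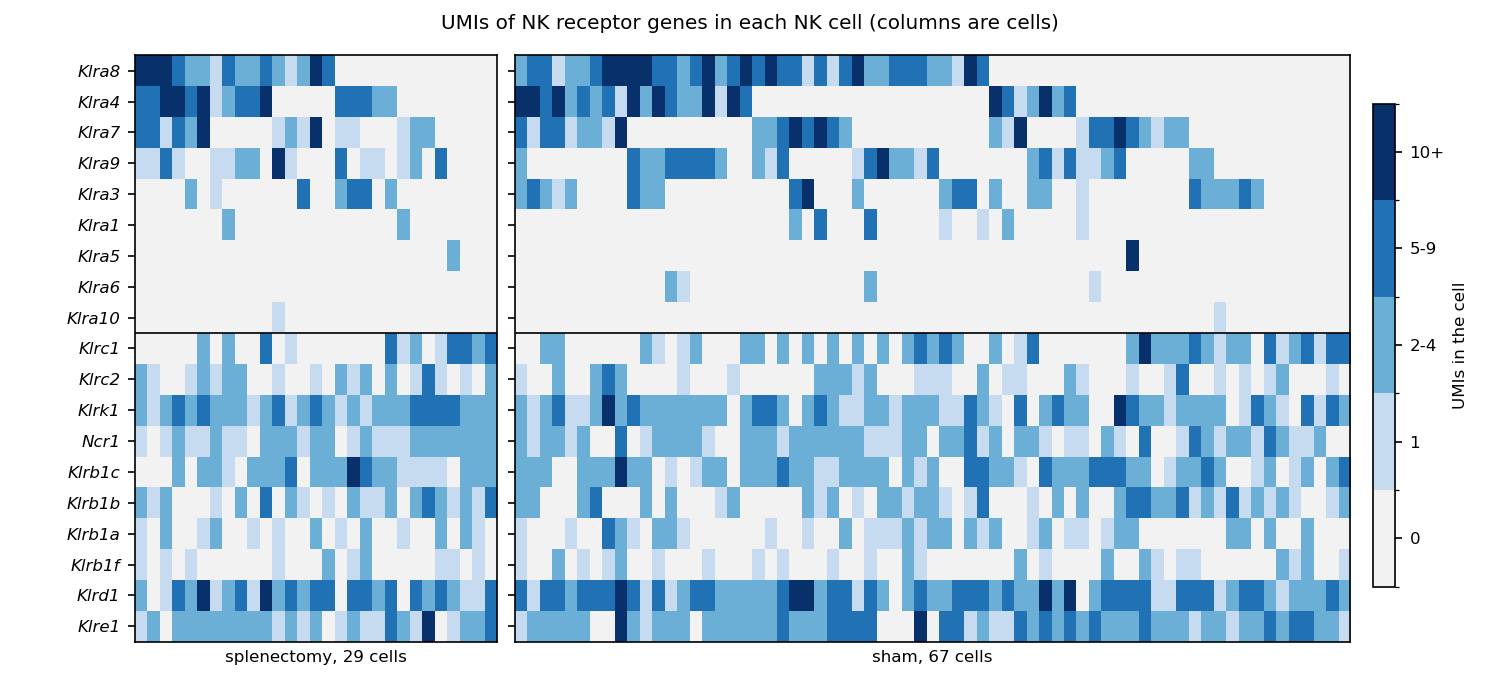
UMIs of receptor genes in each NK cell, with 1 column per cell, splenectomy cells on the left and sham cells on the right, and darker shades for more UMIs. Klra genes (top block) come in mixed combinations, and the cells without a Klra UMI, 3 after splenectomy and 7 after sham surgery, all hold Klrc1.

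Ccl5, a chemokine that draws T cells and monocytes, was found in every NK cell. It ran from 29 to 475 UMIs per splenectomy NK cell with a median of 124, and from 16 to 288 UMIs per sham NK cell with a median of 93. The medians differ while the ranges overlap. The summed Ccl5 level was 24214 CPM after splenectomy and 14447 CPM after sham surgery, a log2 ratio of 0.75 (0.69 to 0.80), and 0.51 (0.45 to 0.57) without the 5 cells. Ccl4, the chemokine MIP-1 beta, was at 1931 CPM after splenectomy and 944 CPM after sham surgery, a log2 ratio of 1.03 (0.82 to 1.24), and 0.87 (0.65 to 1.08) without the 5 cells. Not scaled for depth, the median was 2 Ccl4 UMIs per NK cell in both libraries. 1 cell held 24.3% of the Ccl4 UMIs after splenectomy, and 1 cell held 23.8% after sham surgery. Ccl3, the chemokine MIP-1 alpha, was lower after splenectomy, with 14 UMIs in 8 splenectomy cells and 90 UMIs in 25 sham cells, a ratio of 0.499, and the log2 ratio without the 5 cells was -1.05 (-1.99 to -0.21). The other kept cells under the neutrophil limit also held these genes, Ccl4 at 1013 CPM after splenectomy and 1146 CPM after sham surgery, and Ccl3 at 467 CPM after splenectomy and 432 CPM after sham surgery. The part of their RNA in the NK values was not tested.

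Xcl1 was concentrated in few cells of the splenectomy library, and less so in the sham library. 1 cell held 34.2% of its UMIs in the splenectomy library, and 1 cell held 18.2% in the sham library. The 2 highest cells together held 68.4% after splenectomy, at 81 UMIs each, and 25.7% after sham surgery. The level was 1462 CPM after splenectomy and 942 CPM after sham surgery, a log2 ratio of 0.63 (0.40 to 0.86), and 0.38 (0.15 to 0.61) without the 5 cells. Xcl1 was found in 17 of 29 splenectomy cells and 42 of 67 sham cells, and the thinned shares were 48.3% (29.4% to 67.5%) after splenectomy and 48.5% (36.0% to 61.1%) after sham surgery, against 0% in B cells of both libraries. The splenectomy level of Xcl1 therefore leans on 2 cells, while the shares of positive cells lay within each other's intervals.

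Ifng encodes interferon-gamma, the main cytokine of NK cells. It had 26 UMIs in 16 of 29 splenectomy cells and 54 UMIs in 24 of 67 sham cells, with 17 of the sham UMIs in 1 cell. The log2 ratio of the levels was 0.63 (-0.11 to 1.33), and 0.51 (-0.24 to 1.24) without the 5 cells, which does not separate the libraries beyond counting error. After thinning, 41.4% (23.5% to 61.1%) of splenectomy cells and 16.7% (8.63% to 27.9%) of sham cells held a UMI, and 0% of B cells did in either library. All 16 Ifng-positive splenectomy cells also held Ccl4, against 20 of 24 in the sham library. Of 9 measured cytokine and chemokine genes, 4 were past 1.5-fold on the high side and 2 on the low side (median -0.10), and without the 5 cells 1 of 8 was higher and 1 lower, with a median of 0.07.

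**Figure D4:**
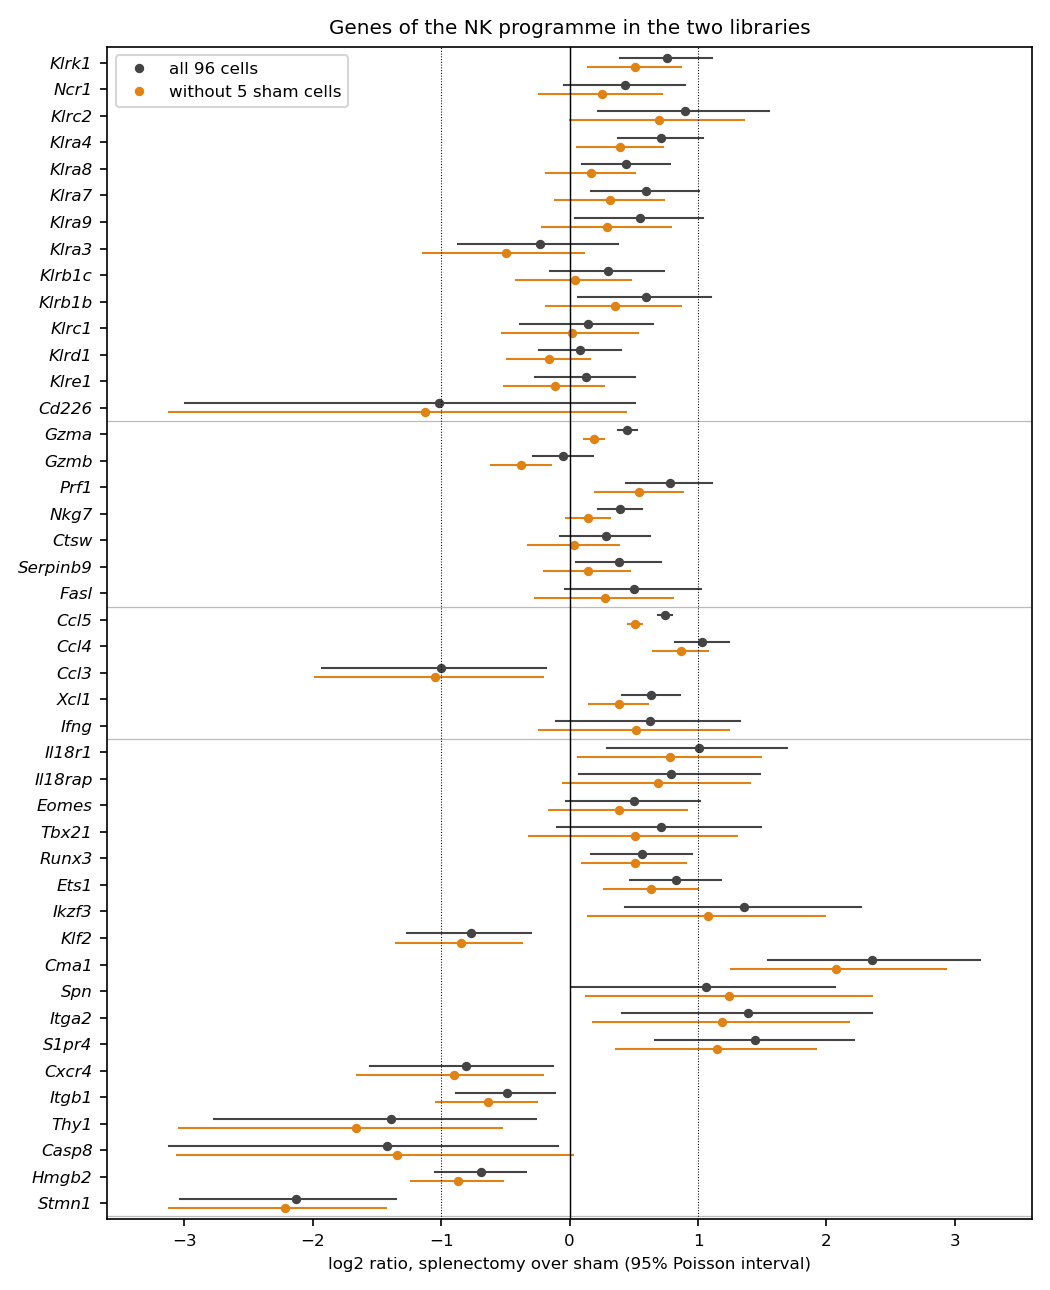
Log2 ratio of summed CPM, splenectomy over sham, with exact 95% counting intervals for NK cell genes, with all NK cells and without the 5 sham cells that hold other cells' RNA. Cma1 lies highest, at 2.35 with all cells, and Ccl5, Ccl4 and Prf1 lie above 0, while Klf2, Ccl3 and Stmn1 lie below 0.

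Interleukin-12, interleukin-15 and interleukin-18 are the cytokines that drive NK cells. The interleukin-18 receptor chain Il18r1 was at 185 CPM after splenectomy and 92.3 CPM after sham surgery, a 2.01-fold higher level, and the log2 ratio without the 5 cells was 0.78 (0.06 to 1.49). Its partner Il18rap had a log2 ratio of 0.79 (0.07 to 1.48), and 0.68 (-0.05 to 1.40) without the 5 cells. Il2rb, the shared interleukin-2 and interleukin-15 receptor chain, was at 802 CPM after splenectomy and 665 CPM after sham surgery, a log2 ratio of 0.27 (-0.03 to 0.56), and 0.05 without the 5 cells. Cish, a brake on interleukin-15 signalling, had 1 UMI in the splenectomy library and 21 UMIs in 14 cells of the sham library, a log2 ratio that rests on 1 UMI, -2.71 (-8.08 to -0.07) with all cells and -2.66 (-8.05 to 0.02) without the 5 cells. Of 21 measured receptor and signalling genes, 3 were past 1.5-fold on the high side and 6 on the low side (median 0.14), and without the 5 cells 3 of 20 were higher and 3 lower (median 0.08).

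Among transcription factors, several lineage factors were higher and Klf2 was lower. Ets1, which NK cells need to develop, was at 642 CPM after splenectomy and 362 CPM after sham surgery, a log2 ratio of 0.83 (0.47 to 1.18), and 0.64 without the 5 cells. Runx3, a factor of killer lymphocytes, had a log2 ratio of 0.56 (0.16 to 0.95), and 0.51 (0.10 to 0.91) without the 5 cells. Ikzf3, the Ikaros family member Aiolos, had a log2 ratio of 1.36 (0.43 to 2.27), and 1.07 (0.14 to 1.99) without them. Eomes and Tbx21, the T-box pair of NK cells, had log2 ratios of 0.51 (-0.03 to 1.02) and 0.72 (-0.10 to 1.49), and of 0.38 and 0.51 without the 5 cells, and the intervals of all 4 values include 0. Klf2, a factor of quiescence that also sets homing, was at 272 CPM after splenectomy and 464 CPM after sham surgery, a log2 ratio of -0.77 (-1.27 to -0.30), and -0.85 without the 5 cells. Of 16 measured factors, 6 were past 1.5-fold on the high side and 2 on the low side (median 0.41), and without the 5 cells 5 were higher and 2 lower, with a median of 0.36.

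Mouse NK cells gain Itgam, Klrg1 and S1pr5 and lose Cd27 as they mature. Cma1, a protease gene first known from mast cells and listed here with the late stage, had the highest ratio among the genes named by size with all cells, and lay below Ly6c2 without the 5 cells. It lies at chr14:55941451-55944675 on the minus strand (mm10). It had 35 UMIs in 14 of 29 splenectomy cells and 22 UMIs in 14 of 67 sham cells, and its highest cells held 11 UMIs after splenectomy and 4 UMIs after sham surgery. The level was 216 CPM after splenectomy and 42.3 CPM after sham surgery, a log2 ratio of 2.35 (1.54 to 3.19), and 2.07 (1.25 to 2.93) without the 5 cells. When all NK cells with at least 3 myeloid or B-cell UMIs were left out, 25 splenectomy and 61 sham cells remained and the log2 ratio was 0.85. The thinned shares were 27.6% (12.7% to 47.2%) after splenectomy and 7.58% (2.51% to 16.8%) after sham surgery, and 0% in B cells of both libraries. The mast cell and basophil markers had 1 UMI in splenectomy NK cells and 0 UMIs in sham NK cells.

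Itgam was found in 12 of 29 splenectomy cells and 31 of 67 sham cells, and Klrg1 in 11 of 29 and 19 of 67. S1pr5 was found in 4 of 29 splenectomy cells and 6 of 67 sham cells. Some further genes of the late-stage list were higher in the counts. Itga2 had a log2 ratio of 1.39 (0.41 to 2.36), and 1.18 (0.18 to 2.18) without the 5 cells, although similar shares of cells held it, 9 of 29 after splenectomy and 19 of 67 after sham surgery. Spn, which encodes CD43, had a log2 ratio of 1.07 (0.02 to 2.07), and 1.24 (0.12 to 2.35) without the 5 cells. Thy1, a surface glycoprotein gene listed here with the early stage, had 7 UMIs in the splenectomy library and 59 UMIs in the sham library, a log2 ratio of -1.39 (-2.77 to -0.26), and -1.66 without the 5 cells. Cd27, another gene of the early-stage list, was at 198 CPM after splenectomy and 140 CPM after sham surgery, a log2 ratio of 0.49 (-0.16 to 1.11), and 0.34 without the 5 cells, so the early genes had ratios of both signs. By presence of a UMI, 11 of 29 splenectomy cells and 19 of 67 sham cells held Cd27 without Itgam, and 8 of 29 splenectomy cells and 15 of 67 sham cells held Itgam without Cd27. Of 10 measured late-stage genes, 5 were past 1.5-fold on the high side and 1 (Klf2) on the low side (median 0.67), and without the 5 cells 7 were higher and 1 was lower (median 0.80). The late-stage median was 0.28 when cells with any Cd3d, Cd3e or Trac UMI were left out, 0.38 without each gene's top cell in each library, and 0.42 over the genes with at least 30 UMIs. The summed level of the late-stage list was 2326 CPM after splenectomy and 2225 CPM after sham surgery, and without the 5 cells the sham sum was 2472 CPM, so the sum did not share the direction of the median there. Gzmb, also counted with the killing genes, belongs to this list and weighs most in its sum. It held 198 of the 377 list UMIs after splenectomy and 658 of the 1157 list UMIs after sham surgery. Of 7 measured early-stage genes, Xcl1 among them, 1 was higher and 3 lower (median -0.10), and without the 5 cells 0 of 6 were higher and 2 lower, with a median of 0.04.

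Each gene of the ILC1 list was found in a minority of NK cells. Ltb was found in most, 6 of 29 splenectomy cells and 10 of 67 sham cells. Tmem176a and Gpr183 were each found in 4 of 29 splenectomy cells and 6 of 67 sham cells. A missing UMI of a low gene does not show that the gene is off, so the number of ILC1-like cells was not tested. Itgae and Zfp683 were at 0 in both libraries, and Itga1, which encodes CD49a, was found in 3 of 29 splenectomy cells and 7 of 67 sham cells. Itga1 without Eomes was found in 2 splenectomy cells and 6 sham cells, and Cxcr6 in 1 cell of each library. Tnfsf10, which encodes the death ligand TRAIL, had 6 UMIs in 4 splenectomy cells and 4 UMIs in 2 sham cells, a log2 ratio of 2.27 (0.19 to 4.54), and 1.92 (-0.15 to 4.19) without the 5 cells. Of the cells without a Gzma UMI, 2 of 4 after splenectomy and 2 of 3 after sham surgery held Tnfsf10. Of 7 measured ILC1 markers, 3 were past 1.5-fold on the high side and 1 on the low side (median 0.10), and without the 5 cells 2 of 5 were higher and 0 lower (median 0.49).

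Among homing genes, S1pr4, a sphingosine-1-phosphate receptor, was at 173 CPM after splenectomy and 63.5 CPM after sham surgery, a log2 ratio of 1.44 (0.66 to 2.22), and 1.14 without the 5 cells. Selplg, the selectin ligand PSGL-1, had a log2 ratio of 0.58 (0.22 to 0.93), and 0.43 (0.07 to 0.79) without the 5 cells. Cxcr4, which holds cells in bone marrow, was at 130 CPM after splenectomy and 227 CPM after sham surgery, a log2 ratio of -0.81 (-1.55 to -0.13), and -0.90 without the 5 cells. Itgb1, the integrin beta-1 chain, had a log2 ratio of -0.49 (-0.89 to -0.11), and -0.64 (-1.04 to -0.25) without the 5 cells. Of 18 measured homing genes, 6 were past 1.5-fold on the high side and 1 on the low side (median 0.33), and without the 5 cells 5 were higher and 2 lower, with a median of 0.24.

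Cell division genes were lower after splenectomy. Of 16 measured genes, 0 were past 1.5-fold on the high side and 12 on the low side (median -0.96), and without the 5 cells 0 were higher and 14 lower, with a median of -1.08. Stmn1, a microtubule regulator of dividing cells, had 14 UMIs in 10 splenectomy cells and 197 UMIs in 27 sham cells, a log2 ratio of -2.13 (-3.03 to -1.35), and -2.21 (-3.12 to -1.43) without the 5 cells. Pclaf, a partner of the replication clamp, had 0 UMIs after splenectomy and 56 UMIs in 4 cells after sham surgery. Mki67, the proliferation marker Ki-67, had 1 UMI after splenectomy and 35 UMIs in 6 cells after sham surgery, 26 of them in 1 cell. For the whole list, the leading sham cell held 373 of the 1117 UMIs after sham surgery (33.4%). The list summed to 1024 CPM after splenectomy and 2148 CPM after sham surgery, the sham sum without the 5 cells was 2414 CPM, and leaving out the top cell of each library gave 960 CPM after splenectomy and 1495 CPM after sham surgery. Cells with at least 10 of the 20 genes numbered 0 of 29 after splenectomy, with an exact interval that reaches 11.9%, against 4 of 67 (5.97%, 1.65% to 14.6%) after sham surgery, so a difference in dividing cells was not detectable at this number of cells. The same list had a median of -2.57 in T cells, 1.99 in B cells and -0.14 in the other kept cells.

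The median of the interferon-stimulated genes depended on the 5 cells. Of 36 measured genes, 2 were past 1.5-fold on the high side and 11 on the low side (median -0.19), but without the 5 cells 2 of 26 were higher and 4 were lower (median 0.12). Ifi27l2a, a gene induced by type I interferon, was at 290 CPM after splenectomy and 1298 CPM after sham surgery, and its log2 ratio of -2.16 became 0.12 without the 5 cells. In the other kept cells the median was -0.87, with 0 of 59 genes higher and 47 lower, against -0.17 in T cells and 0.02 in B cells. The difference between NK cells and the other cells was not tested.

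**Figure D5:**
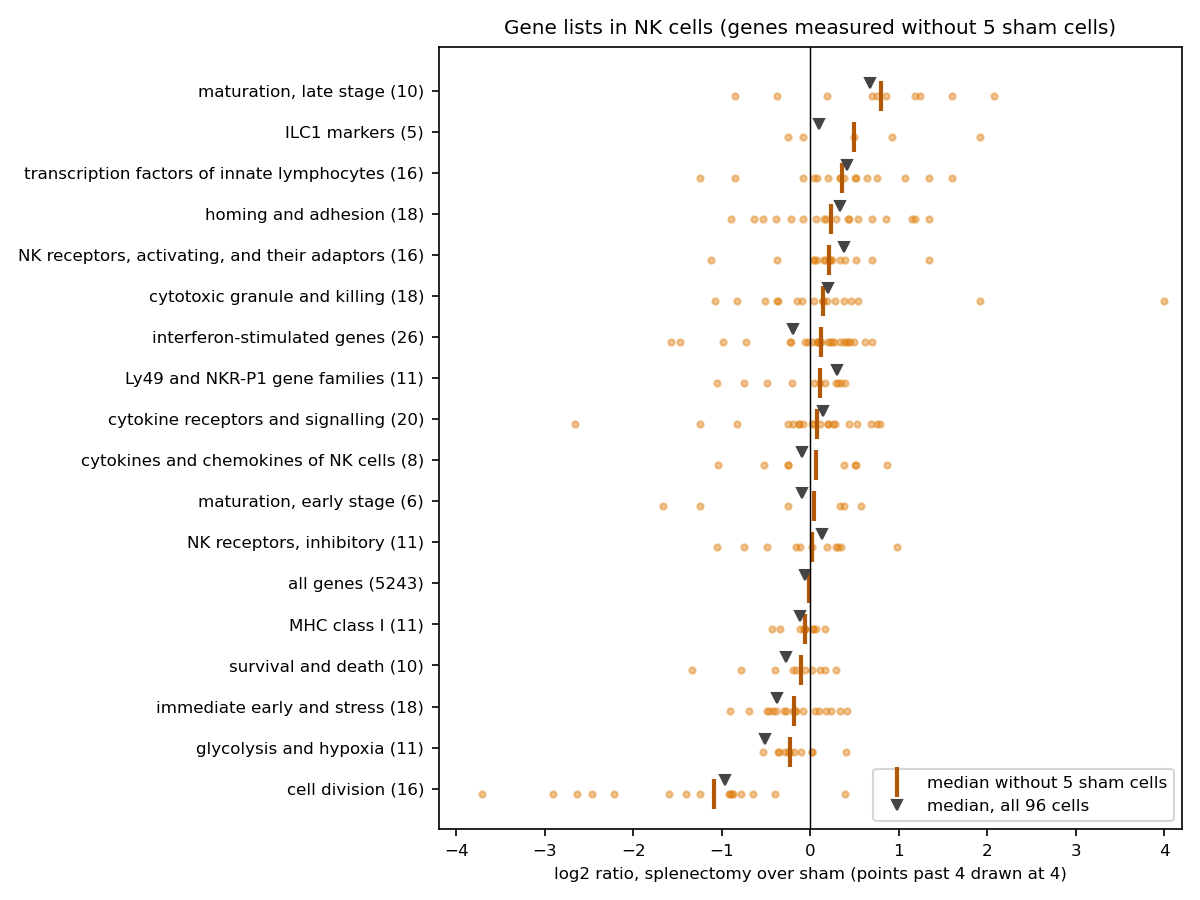
Log2 ratios, splenectomy over sham, of the measured genes of each list (points, without the 5 sham cells that hold other cells' RNA), with the list median without these cells (bars) and with all 96 cells (triangles). Late-stage maturation genes lie highest, at 0.67 with all cells, cell division lies lowest at -0.96, and the interferon-stimulated genes cross 0 when the 5 cells are left out.

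MHC class I genes differed little. H2-D1 and H2-K1, the classical class I genes whose copies share reads with their relatives, had log2 ratios of 0.01 (-0.13 to 0.16) and 0.01 (-0.15 to 0.17) with all cells and 0.06 and -0.07 without the 5 cells. The median over 11 measured genes was -0.12 with all cells and -0.06 without the 5 cells. Glycolysis genes had a median of -0.52 with all cells, with 4 of 12 lower, and -0.23 without the 5 cells, with 0 of 11 past 1.5-fold. Immediate early genes had a median of -0.38 with all cells, with 6 of 18 lower, and -0.18 without the 5 cells, with 2 of 18 lower. Among them Nr4a1, an early gene of receptor signalling, had log2 ratios of -0.80 (-1.42 to -0.24) and -0.70 without the 5 cells. Survival genes had a median of -0.27 with all cells, with 3 of 12 lower, and -0.11 without the 5 cells, with 2 of 10 lower. Casp8, which starts death-receptor killing, had 5 UMIs after splenectomy and 43 UMIs after sham surgery, a log2 ratio of -1.42 (-3.12 to -0.09), and -1.34 (-3.06 to 0.03) without the 5 cells.

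Across all genes with at least 30 UMIs, 82 of 2865 (2.86%) reached 2-fold on the high side after splenectomy, and 237 (8.27%) reached it on the low side. Without the 5 cells these were 51 (2.12%) and 93 (3.86%) of 2408. By the size of the ratio the 10 highest genes with all cells were Cma1, Akirin1, Gna15, Rbl2, Dleu2, Kdelr2, Ly6c2, Gtf3a, S1pr4 and Itga2. With the 5 cells left out they were Ly6c2, Cma1, Akirin1, Lyz2, Rbl2, Lgals3, Tiparp, Cd2, Atp2b1 and Nrd1, of which Lyz2 and Lgals3 are genes of monocytes and macrophages. Rbl2, the pocket protein p130 that keeps resting cells out of the cycle, was at 136 CPM after splenectomy and 44.2 CPM after sham surgery, a log2 ratio of 1.62 (0.71 to 2.53), and 1.47 (0.53 to 2.42) without the 5 cells. Akirin1, a nuclear protein, had a log2 ratio of 1.99 (1.10 to 2.89), and 1.95 without the 5 cells. Gna15, a G-protein alpha subunit of blood cells, had a log2 ratio of 1.88 (0.95 to 2.82), and 1.95 without them. Ly6c2, a surface antigen of monocytes and of lymphocyte subsets, had 40 UMIs in 9 of 29 splenectomy cells and 44 UMIs in 9 of 67 sham cells, a log2 ratio of 1.54 (0.89 to 2.20), and 2.20 (1.41 to 3.02) without the 5 cells. Monocytes also express Ly6c2, and the other kept cells held it at 226 CPM after splenectomy and 375 CPM after sham surgery. The myeloid genes Lyz2 and Lgals3 were also higher when the 5 cells were left out, with log2 ratios of 1.48 (0.71 to 2.26) and 1.34 (0.66 to 2.02), and the part of myeloid RNA in the Ly6c2 value was not tested.

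The 10 lowest genes with all cells were Wfdc17, Apoe, Cd74, H2-Ab1, Ccl6, Cxcl2, Spp1, Atf3, Ccl2 and Ifitm3, most of them genes of macrophages or antigen-presenting cells. Wfdc17 had 1 UMI after splenectomy and 333 UMIs after sham surgery, 231 of them in 1 cell, and 9 of the sham UMIs remained without the 5 cells. H2-Ab1, an MHC class II gene, had 0 UMIs after splenectomy and 134 UMIs after sham surgery, at least 13.9-fold lower with a floor of 3 UMIs per library, and 7 of the sham UMIs remained without the 5 cells. Cd74, the class II chaperone, had a log2 ratio of -5.02, and 0.34 without the 5 cells, and Apoe of -5.32, and -0.91 without them. Without the 5 cells the lowest genes were Hist1h2ap, Rrad, Ebna1bp2, Stmn1, Spp1, Dut, Rgs16, Icam1, Ola1 and Dnajc9. Hist1h2ap, a histone gene of dividing cells, had 6 UMIs after splenectomy and 120 UMIs after sham surgery, 87 of them in 1 cell. Icam1, the adhesion ligand of LFA-1, had 6 UMIs after splenectomy and 52 UMIs after sham surgery without the 5 cells, a log2 ratio of -1.78 (-3.29 to -0.56). Rgs16, a brake on chemokine receptor signalling, had a log2 ratio of -1.80 (-3.49 to -0.47) without the 5 cells.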

How the data were processed

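Gene by cell matrices of 2 libraries were used as deposited by the authors. They hold whole-number UMI counts for 32285 features and, per the file headers, come from Cell Ranger 5.0.0. The submitters' processing notes name the build mm10 and STAR, and neither source names the gene annotation. Columns of other samples numbered 0. Reads were not analysed here.

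Counts of the NK cells were summed per library and divided by their total to give CPM, so the summed levels weigh deep cells more. Ratios are splenectomy over sham with exact 95% Poisson intervals, shares have exact Clopper-Pearson intervals, and 3 UMIs per library stood in for a count of 0. All intervals cover counting error only, and with 1 library per group no p-value was computed. Genes were counted at 2-fold with at least 30 UMIs over both libraries, and list genes at 1.5-fold with at least 10 UMIs. For shares of cells with a gene, each cell was thinned to 2000 UMIs, which left out 0 splenectomy and 1 sham NK cells, and 7 splenectomy and 6 sham B cells. Doublets were not removed in the main values. The alternatives left out cells with the highest Scrublet scores or with myeloid or B-cell UMIs, and the highest scores took 0 splenectomy and 5 sham NK cells, 3 of them among the 5 cells with other cells' RNA.

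Genes were named by fixed rules. Between libraries they are the 10 highest and 10 lowest ratios with at least 40 UMIs, a UMI in at least 15% of the cells of the higher library and at least 1.5-fold. Against the other kept cells they are the 25 highest ratios, and against T cells the 10 highest and 10 lowest. Mitochondrial, ribosomal, haemoglobin, predicted and receptor variable genes were left out. Genes of the lists are named beside them as examples. Most list genes enter the counts, medians and sums without being named. The members and lists were chosen with earlier results of these data known. Promoter windows are from RefSeq on GRCm38.p6 and gene positions from GENCODE vM21. The counting and ratio steps were tested on simulated Poisson counts. These leave out the gathering of a gene's UMIs in single cells, so the intervals were not tested for it. Alternatives numbered 17 planned and 2 added after the data were seen. Analyses ran in Python 3.11.15 with scanpy 1.11.5, pandas 2.3.3, scipy 1.17.1 and numpy 2.4.6, and plots were made with matplotlib 3.10.9.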

Additional observations from a re-analysis of the deposited data

How the results depend on the processing

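The NK share ratio kept its direction in 11 alternatives, between 0.481 and 0.574. The number of genes at least 2-fold higher after splenectomy, 82, became 607 with no filter on low counts, 13 with at least 60 UMIs, 54 without the highest Scrublet scores, 38 without cells of at least 3 myeloid or B-cell UMIs, 51 without the 5 cells with other cells' RNA, and 38 with each gene's top cell left out in each library. The number at least 2-fold lower, 237, became 942, 104, 121, 98 and 93 in the first 5 of these. The interferon list median, -0.19, became 0.12 without the 5 cells, 0.25 without cells of at least 3 myeloid or B-cell UMIs, 0.0364 without the highest Scrublet scores, 0.0212 with every cell weighing the same, and -0.47 with a limit of 2 NK UMIs. The log2 ratios that changed sign were those of Ccl2 (0.34 and 0.54), Cxcl2 (0.40 and 0.27), Lyz2 (1.48 and 0.78) and Lgals3 (1.34 and 1.54) without the 5 cells and without cells of at least 3 myeloid or B-cell UMIs, of Lgals3 without the highest Scrublet scores (1.12), of Cd74 without the 5 cells (0.34), and of Spp1 with a limit of 2 NK UMIs (0.26). The first and second filters change how many genes are counted, and the cause of the other moves was not tested. Of 256 values of the other list medians under alternatives, 189 stayed within the counting error of the list's summed UMIs and 67 moved further. The medians of the late-stage, activating receptor, Ly49 and NKR-P1, transcription factor and homing lists stayed above 0 and those of the cell division, glycolysis, immediate early and survival lists stayed below 0 in all 16 of their alternatives, while the other list medians took both signs. The late-stage median ran from 0.28 to 0.80, the activating receptor median from 0.13 to 0.43, and the Ly49 and NKR-P1 median from 0.04 to 0.44. Leaving out the 5 cells and leaving out each gene's top cell were added after the data were seen. No paired analysis was possible because each group is 1 library, and for the same reason no replicate could be left out. With 29 splenectomy cells, 1 cell can set a low gene's ratio, as for Gzmc.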

Other observations

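The deepest of the sham NK cells outside the 5 with other cells' RNA was also the cell with most division genes. It held 22446 UMIs and all 20 genes of the division list, and the next sham cell held 16 of the 20. Trdc, the constant gene of the T-cell receptor delta chain, was found in 7 of 29 splenectomy NK cells and 16 of 67 sham cells. NK cells can transcribe this gene without the receptor. Tcrg-C1, Tcrg-C2 and Tcrg-C4, constant genes of the gamma chain, were at 0 in NK cells of both libraries. Cd3g, a chain of the T-cell receptor complex, was found in 3 of 29 splenectomy and 3 of 67 sham NK cells. Cells with both Ly6c2 and Cma1 numbered 6 of 29 (20.7%, 7.99% to 39.7%) after splenectomy and 3 of 67 (4.48%, 0.933% to 12.5%) after sham surgery, without thinning, and these 2 genes were chosen after their values were seen.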
